A study of Rattus norvegicus with 2 samples.

Results

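Mt2A (ENSRNOG00000043098) and Mt3 (ENSRNOG00000018958), 2 of the 25399 genes in the count tables and 2 of the 5 metallothionein genes listed there, were taken by their symbols and followed through the cells of the rat optic nerve. Metallothioneins are small cysteine-rich proteins that bind zinc and copper and take up reactive oxygen species. The genes of the Mt1 and Mt2 type are made in many tissues and are induced by metals through the zinc-sensing factor MTF1, by glucocorticoids and by oxidative stress, whereas Mt3, first described as growth inhibitory factor, is best known from the nervous system. Mixed optic nerve cells were cultured from WT rats (Sprague Dawley) and Nuc1 rats, which carry a spontaneous insertion in Cryba1, the gene of βA3/A1-crystallin, and made 1 droplet library of 3′ transcript ends from each. The labels of both give postnatal day 7, while the paper's methods give 2-day-old pups for astrocyte cultures, and the labels name no agent for either library. How many animals were pooled is not given in the sources used here. Nuc1 differs from WT by a whole-body mutation, so that every cell type in the culture carries it.

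With 1 library per genotype no difference between WT and Nuc1 had a replicate check, no test was made, and all intervals below are exact 95% intervals that cover counting error only. Cryba1 had 0 UMIs (unique molecular identifiers, each marking 1 captured transcript molecule) in every barcode of both libraries, so the genotype labels could not be checked from it. Filtering kept 1961 WT and 1780 Nuc1 cells, whose median depths were 14050 and 16567.5 UMIs, and 2 cell barcodes were found in both libraries. Cells were clustered without any metallothionein gene and the 11 clusters were named from fixed markers, so that Mt2A and Mt3 were neither clustering genes nor markers. Doublets were called on all genes, and Mt2A was among the 10 leading genes of the astrocyte-like cluster. The astrocyte-like cells were 109 WT cells (5.56%, interval 4.59 to 6.67) and 353 Nuc1 cells (19.8%, 18.0 to 21.8). They met 9 of 10 astrocyte markers. The other, Slc1a2, the glutamate transporter that defines mature astrocytes, had only 5.26 CPM (UMIs of the gene scaled to 1e6 UMIs of the cells) in WT and 11.2 in Nuc1. The others were motile-cilia-like (14 WT and 101 Nuc1 cells), oligodendrocyte-lineage-like (52 and 10), macrophage-like (23 and 22), dividing (145 and 76) and fibroblast-like cells (1596 and 1187, in 5 clusters), and an unnamed cluster led by Ttr and Gldn (22 and 31). Of the fibroblast-like clusters, cluster 4 met 3 of 6 fibroblast markers and also 3 of 5 endothelial ones (Cdh5, Flt1 and Emcn). Cluster 7 met 4 of 6 fibroblast markers but was led by division genes such as Cdkn3 and Kif20a. The dividing cells also met 4 of 6 fibroblast markers, and the motile-cilia-like cells 6 of 10 astrocyte markers. The oligodendrocyte-lineage-like cells also met 5 of 5 division markers.

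Mt1, Mt2A, Mt3 and Mt4 are neighbours on rat chromosome 19 in the RefSeq annotation of GRCr8, a build used here only for these sequences since the build of the count tables is not given in the sources used here. The 250 bases before the start of transcription are printed 5′ to 3′ for both genes and for Mt1, their neighbour, because Mt1 was the gene whose levels over the cell clusters were most like those of Mt2A. Capitals mark the core of the metal response element that MTF1 binds, searched as TGCACNC and TGCGCNC on both strands, and the TATA box, searched as TATAAA on both strands; no match of one overlapped another.
Mt2A, chr19:10838709-10838958, minus strand: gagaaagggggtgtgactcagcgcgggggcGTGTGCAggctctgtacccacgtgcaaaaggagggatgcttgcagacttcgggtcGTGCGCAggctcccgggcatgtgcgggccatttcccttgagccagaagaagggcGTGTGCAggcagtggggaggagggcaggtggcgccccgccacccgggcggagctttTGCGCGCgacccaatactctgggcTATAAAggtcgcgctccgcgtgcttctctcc
Mt3, chr19:10856081-10856330, minus strand: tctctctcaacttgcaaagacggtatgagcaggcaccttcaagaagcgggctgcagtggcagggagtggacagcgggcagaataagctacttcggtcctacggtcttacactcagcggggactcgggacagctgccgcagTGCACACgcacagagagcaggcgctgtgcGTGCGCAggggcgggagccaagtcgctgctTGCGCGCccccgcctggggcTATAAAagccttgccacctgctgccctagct
Mt1, chr19:10832976-10833225, minus strand: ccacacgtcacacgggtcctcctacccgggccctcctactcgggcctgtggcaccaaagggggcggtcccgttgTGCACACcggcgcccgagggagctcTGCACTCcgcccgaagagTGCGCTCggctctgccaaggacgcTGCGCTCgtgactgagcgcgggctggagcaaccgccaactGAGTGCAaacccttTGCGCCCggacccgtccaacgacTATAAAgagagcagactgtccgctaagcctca
Mt2A held 4 matches of the metal response core, Mt3 held 3 and Mt1 held 6, each with 1 TATA box at nearly the same place, with its last base 26 bases before the start in Mt2A and Mt3 and 27 in Mt1. Of 33469 promoter windows of this length, 20.6% held at least 1 match of the metal response core, 1.17% at least 3 and 0.266% at least 4, and 12.9% held TATAAA. The letters TGACNNNGC of the antioxidant response element were found once each in Mt2A and Mt1 and not in this window of Mt3, against 10.1% of all windows. These matches describe letters and are not binding sites.

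Mt3 was the more abundant of the pair wherever astrocyte markers were high, and its level split the culture by cell group. In astrocyte-like cells it reached 6958 CPM (6862 to 7056) in WT and 9089 (9028 to 9152) in Nuc1, and it was detected in 109 of 109 and 353 of 353 cells. Since the library counts 3′ ends, a level needs no correction for transcript length. Motile-cilia-like cells, which bear the beating cilia known from ependyma, came next at 6499 CPM (6249 to 6756) in WT and 7266 (7151 to 7383) in Nuc1, again with Mt3 in every cell. The Ttr and Gldn cells followed at 980 (893 to 1074) and 1502 (1408 to 1601) CPM, and there the gene was uneven: after each cell was thinned to 5000 UMIs, 11 of 22 WT cells and 62.1% of Nuc1 cells held a Mt3 UMI, and a single cell held 43.7% of the Mt3 UMIs in WT and 32.5% in Nuc1.

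In the remaining groups the sum rested on few cells. Oligodendrocyte-lineage-like cells had 340 CPM of Mt3 in WT (300 to 383) and 159 in Nuc1 (92.7 to 255), and 1 WT cell held 158 of the 267 UMIs. Dividing cells had 46.5 and 249 CPM, with 152 of the 181 WT UMIs and 252 of the 575 Nuc1 UMIs in 1 cell each. The macrophage-like cells had 19.5 CPM (5.31 to 49.9) in WT and 2320 in Nuc1, where 1 cell held 168 of the 173 Mt3 UMIs and 29 of the 30 Mt2A UMIs. That group had a median of only 1807.5 UMIs per cell in the Nuc1 library, so its level describes 1 cell and not the group. In WT the intervals of macrophage-like cells overlapped those of dividing and fibroblast-like cells, and in Nuc1 the intervals of dividing and oligodendrocyte-lineage-like cells overlapped, so the order of these neighbours is not set.

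Fibroblast-like cells, which make the collagens of the nerve sheath, had little Mt3, 7.34 CPM (6.32 to 8.47) in WT and 27.1 (24.9 to 29.4) in Nuc1. The level in astrocyte-like cells was 948 times this in WT (log2 ratio 9.89, 9.68 to 10.1) and 336 times in Nuc1 (8.39, 8.27 to 8.51), and since free RNA can add to the lower level, these folds and the gap between them were not read further. A Mt3 UMI was seen in 9.84% of WT and 30.5% of Nuc1 fibroblast-like cells, and after thinning in 3.29% and 11.2%. Free RNA from one source keeps its genes in 1 ratio in every cell type, so Mt3 was set against each of the 10 astrocyte markers. The ratio to Gfap, the intermediate filament of astrocytes, was 1.29 (1.03 to 1.62) in WT fibroblast-like cells and 1.02 (0.998 to 1.04) in the astrocyte-like cells of that library, and 1.06 (0.940 to 1.20) and 0.954 (0.945 to 0.963) in Nuc1. With Mlc1, a membrane protein of astrocyte endfeet, the ratios were 5.78 (3.96 to 8.70) and 5.32 (5.14 to 5.51) in WT and 4.08 (3.38 to 4.96) and 3.95 (3.89 to 4.01) in Nuc1. The intervals met for 3 of 10 markers in each library, Gfap and Mlc1 in both, Fabp7 in WT and the water channel Aqp4 in Nuc1. For 6 markers in each library, among them S100b, the glutamate transporter Slc1a3 and creatine kinase Ckb, the fibroblast-like cells had less Mt3 per marker UMI than astrocyte-like cells. For 1 they had more, Aqp4 in WT (6.85, 4.56 to 10.7, against 3.92, 3.80 to 4.04) and Fabp7 in Nuc1 (1.72, 1.498 to 1.98, against 1.44, 1.43 to 1.46). Each ratio also depends on the marker RNA that fibroblast-like cells hold from any source. In them Ckb had 112 CPM in WT and 179 in Nuc1, Slc1a3 46.3 and 72.0, and S100b 11.5 and 19.8. Gfap had 5.67 and 25.5 CPM there, and the part of these levels in the ratios was not tested. Whether the few Mt3 UMIs of fibroblast-like cells came from free RNA was not tested, and the share of cells with a UMI was not read as expression.

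**Figure D1:**
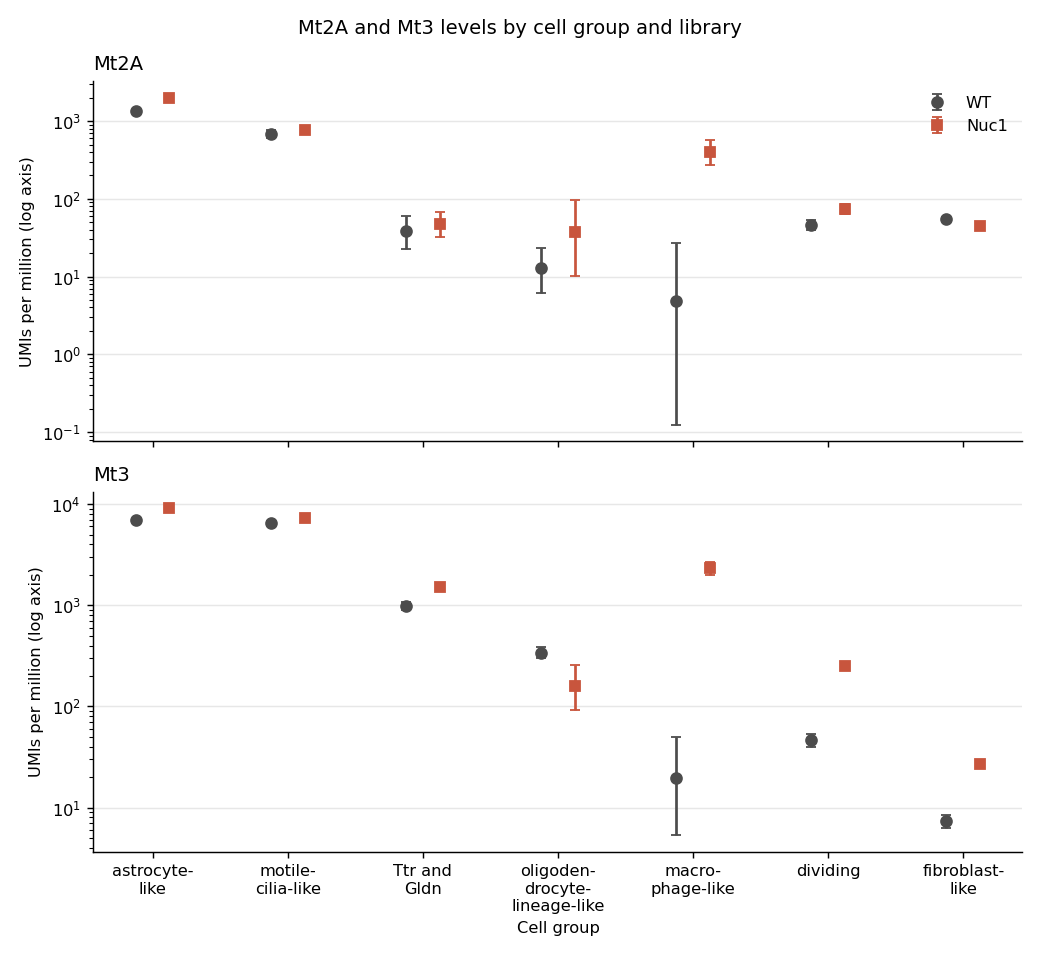
Levels of Mt2A (top) and Mt3 (bottom) in CPM, on log axes, for 7 cell groups in the WT library (circles) and the Nuc1 library (squares); bars are exact 95% Poisson intervals of the counts and some are smaller than the points. Both genes were highest in astrocyte-like cells and next in motile-cilia-like cells, the macrophage-like points of Nuc1 rest on 1 cell, and fibroblast-like cells had 7.34 and 27.1 CPM of Mt3.

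Mt2A had the same leading groups as Mt3, at lower levels. It had 1347 CPM (1304 to 1390) in WT and 1989 (1960 to 2018) in Nuc1 astrocyte-like cells and was detected in 108 of 109 and 352 of 353 of them. Motile-cilia-like cells had less, 677 CPM (598 to 764) in WT and 776 (739 to 815) in Nuc1, so that astrocyte-like cells were 1.99-fold and 2.56-fold higher. For Mt3 the same step was only 1.07-fold in WT and 1.25-fold in Nuc1. Fibroblast-like cells had 55.5 CPM of Mt2A (52.6 to 58.5) in WT and 44.7 (41.8 to 47.7) in Nuc1, which left astrocyte-like cells 24.3-fold and 44.5-fold higher. In WT, dividing cells (46.5 CPM, 39.9 to 53.7) overlapped both fibroblast-like cells and the Ttr and Gldn cells (38.4, 22.7 to 60.6), and in Nuc1 the fibroblast-like, the Ttr and Gldn (47.6, 32.1 to 68.0) and the oligodendrocyte-lineage-like cells (37.5, 10.2 to 95.9) overlapped, as did the latter pair with dividing cells (73.9, 63.2 to 85.8). Oligodendrocyte-lineage-like cells of WT had only 10 Mt2A UMIs, 12.7 CPM, of which 8 were in 1 cell, and macrophage-like cells of WT had 1 UMI, 4.88 CPM (0.123 to 27.2), under the level of 14.6 CPM at which 3 UMIs would be reached.

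The Mt2A of fibroblast-like cells stood in another ratio to Mt3 than in astrocyte-like cells. There were 0.132 Mt3 UMIs per Mt2A UMI (0.113 to 0.154) in WT fibroblast-like cells and 0.606 (0.544 to 0.675) in Nuc1, against 5.17 (4.99 to 5.35) and 4.57 (4.50 to 4.64) in astrocyte-like cells. If every Mt3 UMI of the fibroblast-like cells had come with Mt2A at the astrocyte ratio, that would account for 35.8 of 1399 Mt2A UMIs in WT (2.56%) and 121 of 909 in Nuc1 (13.3%), leaving 54.1 and 38.7 CPM. Between the clusters of this class the WT level ran from 32.0 CPM in cluster 1, led by Lum and Penk, to 93.0 in cluster 0, led by Igfbp5 and Cpxm2.

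The ratio of the pair also set the groups apart. Motile-cilia-like cells had 9.60 Mt3 UMIs per Mt2A UMI (8.46 to 10.9) in WT and 9.37 (8.90 to 9.86) in Nuc1, and their intervals met neither those of astrocyte-like cells nor those of the Ttr and Gldn cells, at 25.6 (16.0 to 43.5) and 31.5 (21.9 to 47.0). The latter rest on 18 and 30 Mt2A UMIs, of which 1 cell held 6 in WT and 16 in Nuc1. Both groups also had more Mt3 per Gfap UMI than astrocyte-like cells, with 4.90 (4.46 to 5.39) and 3.11 (3.02 to 3.22) Mt3 UMIs per Gfap UMI in motile-cilia-like cells and 2.77 (2.32 to 3.33) and 3.75 (3.26 to 4.33) in the Ttr and Gldn cells.

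**Figure D2:**
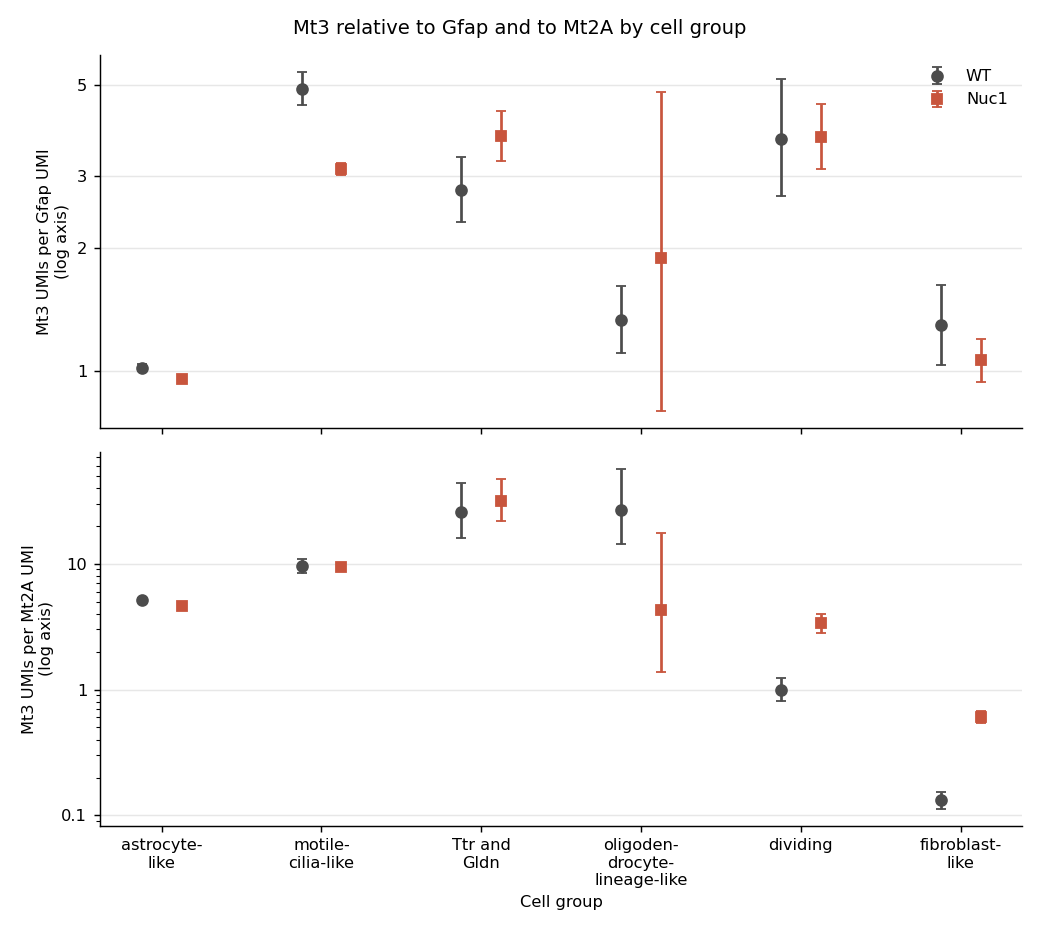
Mt3 UMIs per Gfap UMI (top) and per Mt2A UMI (bottom), both on log axes, in 6 cell groups of the WT (circles) and Nuc1 (squares) libraries with exact conditional 95% intervals; the macrophage-like cells are left out because 1 cell held most of their UMIs. Fibroblast-like cells lay near the astrocyte-like cells for Gfap, at 1.29 and 1.06, and far below them for Mt2A, at 0.132 and 0.606.

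Because cell numbers and levels both differed, the UMIs of each gene were distributed differently in the libraries. Astrocyte-like cells held 84.5% of the Mt3 UMIs of the kept WT cells and 82.5% of those in Nuc1, and motile-cilia-like cells held 10.9% and 15.2%. For Mt2A the astrocyte-like share was 67.2% in WT and 86.7% in Nuc1, and fibroblast-like cells held 24.5% and 4.37%. Over all kept cells Mt3 had 695 CPM in WT and 2885 in Nuc1, and Mt2A had 169 and 601. The share of astrocyte-like cells differed at the same time, at 5.56% and 19.8%.

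Within astrocyte-like cells Mt2A was 1.48-fold higher in Nuc1 than in WT (log2 ratio 0.56, 0.51 to 0.61) and Mt3 1.31-fold higher (0.39, 0.36 to 0.41). Neither was past 1.5-fold, whereas 17.7% of the 7647 genes that reached 100 UMIs there over both libraries were, 5.62% higher and 12.1% lower in Nuc1. The median gene of these cells had a log2 ratio of −0.12, and relative to it the ratio was 0.68 for Mt2A and 0.50 for Mt3, which places Mt2A past 1.5-fold. Of these genes, 89.2% had a lower ratio than Mt3. Thinned to 5000 UMIs, the cells of WT ran from 0 to 19 Mt2A UMIs with a median of 5, and those of Nuc1 from 0 to 44 with a median of 8. For Mt3 they ran from 7 to 74 with a median of 33 in WT and from 0 to 235 with a median of 39 in Nuc1. The cells of the libraries overlapped widely, with 67.5% of Nuc1 cells above the WT median of Mt2A and 61.2% above that of Mt3, and 34 and 38 of 348 Nuc1 cells above the highest WT cell.

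Several other measures moved with this difference, and their part in it was not tested. Mitochondrial UMIs had a median share of 12.9% in WT and 10.9% in Nuc1 astrocyte-like cells, and the log2 ratio of Mt3 was 0.85 among cells with at most 10% (5468 CPM in 17 WT cells and 9868 in 149 Nuc1 cells) but 0.22 among cells with more (7174 in 92 and 8350 in 204 cells). Mt2A had log2 ratios of 0.80 and 0.49 in the same classes of cells, so the size depended on this split for both genes and the direction for neither. The 9 macrophage and microglia markers summed to 110 CPM in astrocyte-like cells of WT and 3.64 in those of Nuc1, with 8 of 9 lower in Nuc1 and Cx3cr1 at 0 in both. The 5 division markers summed to 218 and 38.7 CPM and the 7 motile cilia markers to 80.6 and 191. The 10 astrocyte markers summed to 35155 and 43830 CPM, with 8 of 10 higher in Nuc1, among them Hspb1 (2296 and 4664), Mlc1 (1307 and 2302) and Gfap (6838 and 9528). Aqp4 (1775 and 1666) and Ckb (6053 and 5931) were lower in Nuc1, and Dbi was nearly level (6769 and 6832). Fibroblast markers summed to 512 and 434 CPM, and without the 17 WT and 62 Nuc1 cells above 300 CPM of them the log2 ratios were 0.59 for Mt2A and 0.44 for Mt3.

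In motile-cilia-like cells both genes were also higher in Nuc1, by a log2 ratio of 0.20 (0.01 to 0.39) for Mt2A and 0.16 (0.10 to 0.22) for Mt3, against only 14 WT cells. Mt3 was higher in the Ttr and Gldn cells (0.62, 0.45 to 0.78), where the interval of Mt2A included 0 (0.31, −0.58 to 1.24). In dividing cells Mt2A had a log2 ratio of 0.67 (0.36 to 0.98), with 78 of the 171 Nuc1 UMIs in 1 cell, so neither its size nor its direction was read. Mt3 was lower in Nuc1 oligodendrocyte-lineage-like cells (−1.09, −1.89 to −0.39), from 267 WT and 17 Nuc1 UMIs. There 1 cell held most of the WT UMIs.

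In fibroblast-like cells the direction of Mt2A was the opposite, at a log2 ratio of −0.31 (−0.44 to −0.19), not past 1.5-fold, while 18.4% of the 10098 genes tested there were past it. Most WT cells of this class were in clusters 0, 1 and 2, and most Nuc1 cells in clusters 0, 4 and 2. Cluster by cluster Mt2A was lower in Nuc1 in 4 of 5, from −0.19 (−0.36 to −0.02) in cluster 0 to −1.39 (−1.86 to −0.91) in cluster 4, which is led by Inmt and Cyp26b1 and held 53 WT and 367 Nuc1 cells. In cluster 2, led by AABR07008439.1 and Cldn11, the interval included 0 (0.17, −0.13 to 0.45). Without cluster 4, a choice made after the data were seen, the ratio of the class was −0.10 (−0.23 to 0.03). Mt3 had a log2 ratio of 1.88 (1.64 to 2.13) in the fibroblast-like cells and was higher in 5 of 5 clusters. Its WT level rested on 2 UMIs in cluster 4, fewer than 3, and on 12 in cluster 7. In the fibroblast-like cells 9 of 10 astrocyte markers were higher too, Gfap with 5.67 CPM in WT and 25.5 in Nuc1. The part of free RNA in these values was not tested.

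**Figure D3:**
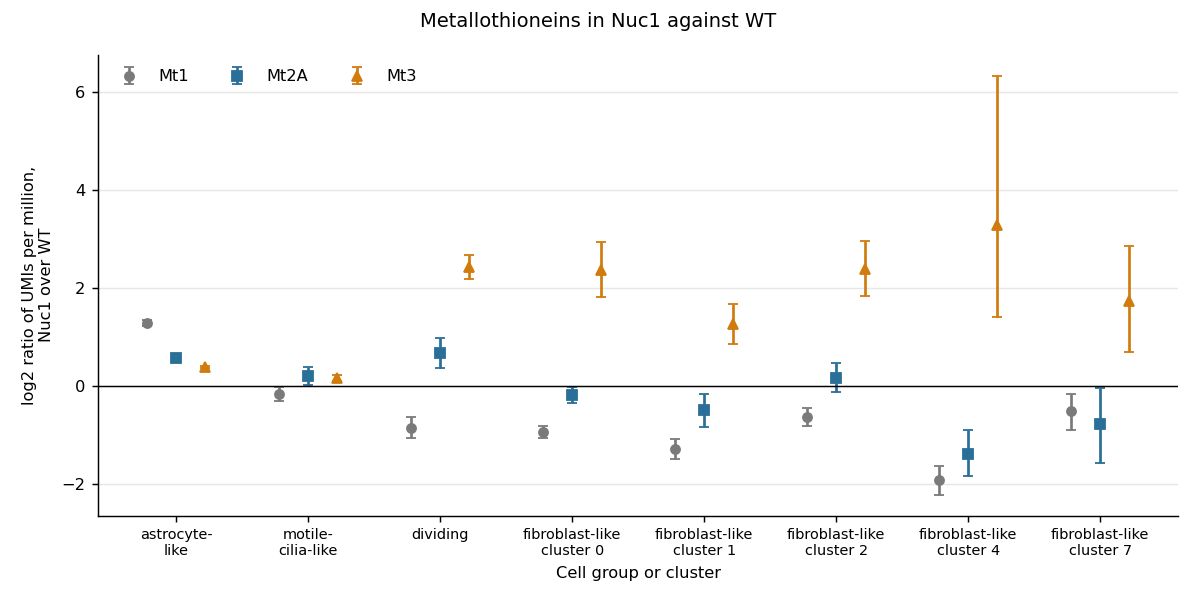
Log2 ratio of CPM in Nuc1 over WT for Mt1 (circles), Mt2A (squares) and Mt3 (triangles) in 3 cell groups and the 5 fibroblast-like clusters, with exact conditional 95% intervals. Mt1 and Mt2A lay above 0 in astrocyte-like cells, at 1.27 and 0.56, and Mt1 lay below 0 in each of the 5 fibroblast-like clusters, where Mt3, at levels of 2.87 to 34.8 CPM, lay above 0. The WT level of Mt3 in cluster 4 rests on 2 UMIs. Many of the Mt2A UMIs of Nuc1 dividing cells were in 1 cell.

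Cell by cell, Mt2A and Mt3 went together in astrocyte-like cells, and more closely in the Nuc1 library. After thinning to 5000 UMIs, Pearson's correlation of log2(UMIs + 1) was 0.64 over 348 Nuc1 cells (Spearman 0.63) and 0.31 over 108 WT cells (Spearman 0.27). These describe cells of 1 library, which share its depth and free RNA, and are no test. With the Nuc1 cells ordered by Mt2A into 4 sets of 87, the mean Mt3 count was 24.7 per 5000 in the lowest set, and then 40.1, 44.2 and 65.2. In WT, in 4 sets of 27, it was 27.2, 35.7, 36.9 and 37.4, so that the WT rise lay in the step from the lowest set. The gap between the libraries depended on depth. Thinned to 10000 UMIs the correlation was 0.47 in WT and 0.64 in Nuc1, and without thinning, on log2(CPM + 1), 0.53 and 0.64, so the WT value was the one that fell with fewer UMIs per cell.

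**Figure D4:**
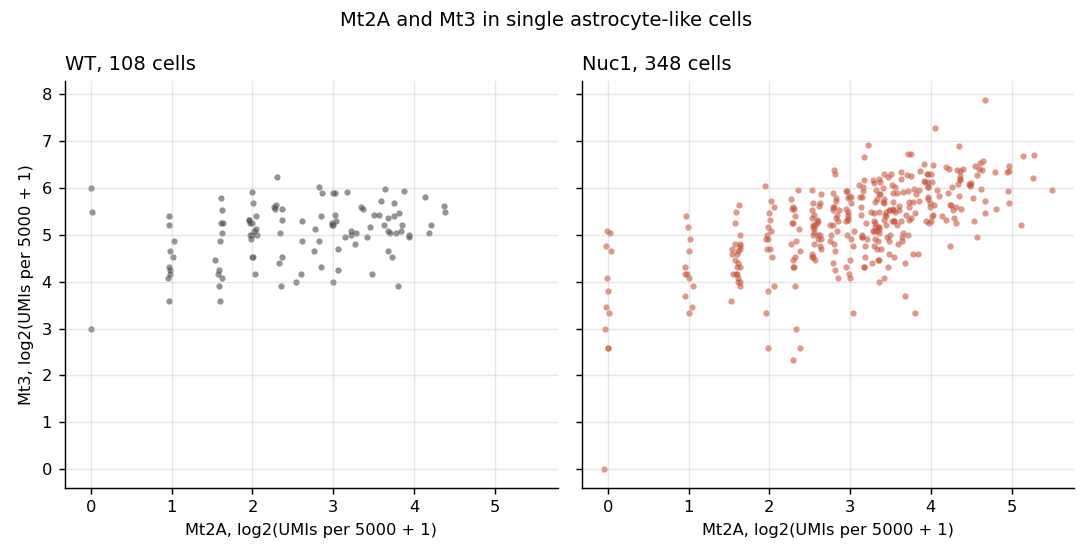
Mt3 against Mt2A in single astrocyte-like cells of the WT library (left, 108 cells) and the Nuc1 library (right, 348 cells), both as log2(UMIs per 5000 + 1), with points moved slightly sideways for legibility. The Nuc1 cells form a rising band (Pearson 0.64) that reaches beyond the WT range, and the correlation over WT cells was lower (0.31). Thinned to 10000 UMIs instead, the correlation was 0.47 in WT and 0.64 in Nuc1.

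Within Nuc1 astrocyte-like cells this correlation was higher than those of Mt2A with Mt1 (0.55), Mlc1 (0.31), Gfap (0.30) or Fabp7 (0.18), and those of Mt3 with Mt1 (0.48), Mlc1 (0.39) or Gfap (0.34). Levels of these genes were unlike, with 9089 CPM of Mt3, 1905 of Mt1 and 2302 of Mlc1, but 9528 of Gfap. Counting error lowers a correlation more for genes with fewer UMIs, and its part in this order was not tested. In WT cells the order was another, with Mt3 closest to Fabp7 (0.45), Gfap (0.44) and S100b (0.43), and Mt2A closest to Fabp7 (0.43) and Mt1 (0.34). The UMIs of a cell before thinning had a correlation of 0.13 with Mt2A and 0.21 with Mt3 in Nuc1, and the mitochondrial share had −0.07 and −0.18. With only the 146 Nuc1 cells at or under 10% mitochondrial UMIs the correlation of the pair was 0.61, and without cells rich in fibroblast markers 0.59. In the 99 motile-cilia-like cells of Nuc1 it was 0.33. In fibroblast-like cells it was 0.01 in WT and 0.03 in Nuc1, and cells with both genes were 0.696% and 2.12% of thinned cells, against 0.610% and 1.85% if the genes were independent.

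Over the cell groups the genes kept different company. Across 20 pairs of cluster and library with at least 20 cells, the 5 of 9041 genes most like Mt3, by Pearson's correlation of log2(CPM + 1), were Mlc1 (0.98), Gfap (0.97), Aqp4 (0.97), Gpm6b (0.97), a membrane glycoprotein of glia and neurons, and Fabp7 (0.97), a brain fatty acid binding protein. For Mt2A they were Mt1 (0.93), the neurotensin receptor Ntsr2 (0.91), Thrsp (0.90), Mt1m (0.90) and Mzt2b (0.90). Mt3 ranked 195th for Mt2A, at 0.68, and Mt2A 452nd for Mt3. Without the astrocyte-like and motile-cilia-like clusters, over 17 points, Mt2A and Mt1 still had 0.82 while Mt2A and Mt3 had 0.24, and Mt3 had 0.96 with Mlc1 and with Gfap. One point is the macrophage-like cells of Nuc1, where 1 cell held most of the Mt3. Without it, a choice made after the data were seen, Mt1 (0.95) and Mlc1 (0.98) stayed first. Lower places changed, as Ntsr2 and Gpm6b left the first 5 and Cdc42ep4 and Fbxo2 entered. Mt3 then ranked 384th for Mt2A, and Mt2A 732nd for Mt3. Over the 16 points that then remained outside the astrocyte-like and motile-cilia-like clusters, Mt2A had 0.87 with Mt1 and −0.12 with Mt3. Over these points Mt3 had 0.95 with Mlc1 and with Gfap. In WT dividing and WT oligodendrocyte-lineage-like cells 1 cell also held most of the Mt3, and these points were kept. Their part in the correlations was not tested. The points share their libraries and the free RNA in them.

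Among the other metallothioneins, Mt1 (ENSRNOG00000038047) was the one past 1.5-fold in astrocyte-like cells, with 789 CPM (757 to 823) in WT and 1905 (1876 to 1933) in Nuc1, a log2 ratio of 1.27 (1.21 to 1.33). It was lower in Nuc1 fibroblast-like cells, at 184 CPM in WT and 87.5 in Nuc1 (−1.07, −1.15 to −0.99), and in each of the 5 clusters, and also in dividing cells (−0.86, −1.07 to −0.65). In motile-cilia-like cells it was slightly lower too, at 1232 CPM in WT and 1088 in Nuc1 (−0.18, −0.32 to −0.03), unlike in astrocyte-like cells. Mt1 was more abundant than Mt2A in fibroblast-like cells, with 0.302 Mt2A UMIs per Mt1 UMI (0.284 to 0.321) in WT, and less abundant in WT astrocyte-like cells, with 1.71 (1.62 to 1.80). In Nuc1 astrocyte-like cells the ratio was 1.04 (1.02 to 1.07). Mt1m, which RefSeq lists as a pseudogene, had 46.3 and 64.5 CPM in astrocyte-like cells, and because such copies can share reads with the coding genes its value is uncertain. Mt4, known from squamous epithelium, had 0 UMIs in both groups. Of the 4 metallothioneins that reached 100 UMIs in astrocyte-like cells, 1 was past 1.5-fold higher and none lower, with a median log2 ratio of 0.52 against −0.12 for all genes, and of the 3 in fibroblast-like cells 1 was higher (Mt3) and 1 lower (Mt1), with a median of −0.31 against 0.03, where 9.65% of genes were past 1.5-fold higher and 8.71% lower.

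Zinc and copper genes were read against the shares of all genes past 1.5-fold, 17.7% in astrocyte-like and 18.4% in fibroblast-like cells, and the zinc counts lay near them. Of 14 zinc transporters measured in astrocyte-like cells, 1 was past 1.5-fold higher in Nuc1 and 1 lower, with a median log2 ratio of −0.20. Slc39a8, a zinc importer, had 5.26 CPM in WT and 9.92 in Nuc1 (0.91, 0.12 to 1.81), and Slc39a12, an importer known from brain, 18.9 and 9.59 (−0.98, −1.49 to −0.46). Slc30a1, the zinc exporter at the cell surface that MTF1 also induces, had too few UMIs in astrocyte-like cells for a ratio (8 and 36), and in fibroblast-like cells it was lower in Nuc1, as was the importer Slc39a14, with log2 ratios of −0.69 (−1.09 to −0.30) and −0.77 (−0.96 to −0.57). Slc30a10, a manganese exporter, was higher there (2.06, 1.74 to 2.40), and these were the 3 of 17 past 1.5-fold, with a list median of 0.13. Mtf1 itself had 0 UMIs in both groups, so the sensor was not measured here, and the reason was not tested. None of 8 copper genes in astrocyte-like cells and none of 9 in fibroblast-like cells were past 1.5-fold, with medians of −0.11 and −0.08, and Sod1, the copper and zinc superoxide dismutase, had log2 ratios of 0.02 (−0.11 to 0.15) and −0.10 (−0.16 to −0.03).

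For the lists of responses known to accompany Mt1 and Mt2A, the shares of all genes past 1.5-fold were 5.62% higher and 12.1% lower in astrocyte-like cells and 9.65% and 8.71% in fibroblast-like cells. Of 5 glucocorticoid response genes in astrocyte-like cells, Ddit4 was higher in Nuc1 (0.67, 0.38 to 0.98), and Errfi1 (−1.50, −1.87 to −1.13) and Sgk1 (−0.83, −1.36 to −0.29) were lower, with a median of −0.44. Of 6 in fibroblast-like cells Ddit4 was higher (1.17, 0.99 to 1.36) and Tsc22d3, the glucocorticoid-induced leucine zipper, lower (−0.86, −0.96 to −0.76), with a median of 0.04. Of 7 oxidative stress genes in astrocyte-like cells 1 was past 1.5-fold, the haem oxygenase Hmox1 (0.68, 0.48 to 0.88), with a median of −0.04, and of 8 in fibroblast-like cells the cystine transporter Slc7a11 was higher (2.04, 1.85 to 2.22) and Gsr lower (−0.63, −1.10 to −0.18), with a median of −0.02. Among genes that respond to cell dissociation, 5 of 8 were past 1.5-fold lower in Nuc1 astrocyte-like cells and none higher, with a median of −1.08, and in fibroblast-like cells 5 of 8 were lower and 1, Hspa1b, higher, with a median of −0.71. Egr1, for example, had log2 ratios of −1.55 (−1.65 to −1.46) and −0.90 (−0.92 to −0.87). Hspa1b had 0.04 (−0.41 to 0.52) in astrocyte-like cells. The part of these genes in the metallothionein values was not tested.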

How the data were processed

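Mt2A and Mt3 and the gene lists were chosen with earlier results of these data known. UMI counts for each gene in each barcode, deposited by the authors without normalization, came from 10x 3′ libraries processed, per the labels, with Cell Ranger 3.1.0, STAR 2.7 and Seurat 3.1.0 or 3.1.1. Inputs of 5092 WT and 5125 Nuc1 cells gave 2107 and 1929 barcodes with 34517542 and 35794685 UMIs. The labels give a cell viability of 90% for WT and 95% for Nuc1, and its part in the values was not tested. Barcodes were kept from 500 detected genes upward when mitochondrial genes gave no more than 20% of UMIs, and 7 WT (0.356%) and 13 Nuc1 (0.725%) doublets were left out (Scrublet in scanpy 1.11.5, expected rate 2%). The WT rate is so low that the caller may not have worked, and doublets can remain.

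Both libraries were integrated by anchors in Seurat 5.3.0 (2000 variable genes, without metallothionein genes, 30 principal components, resolution 0.5, seed 1). A cluster took the name of a fixed marker list when at least 3 markers, and 50% of those in the table, had at least 20 CPM and 25% of their highest cluster level. Where several lists qualified, the one with more markers among the 10 leading genes was taken, then the one with the higher summed CPM. These limits were set after the clusters were seen. UMIs were summed by group and library; levels have exact Poisson, shares exact binomial (Clopper-Pearson) and ratios exact conditional intervals at 95%, covering counting error only. Called means past 1.5-fold among genes with at least 100 UMIs. Genes named are both members, all list members, the 5 genes most like each member, and the markers or leading genes of a group. The 99 symbols listed more than once were not used. Steps were tested on simulated data. The alternatives tried, edgeR 4.0.16 scaling among them, are given in the closing section. Sequences are from RefSeq (GRCr8).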

Additional observations from a re-analysis of the deposited data

Results flagged for a closer look

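Mt2A differed in direction between cell groups. Nuc1 over WT, its log2 ratio stood at 0.56 in astrocyte-like cells and −0.31 in fibroblast-like cells, and the difference between the groups was not tested, since each genotype had 1 library. Mt1 differed in the same way and by more, with 1.27 in astrocyte-like cells and −1.07 in fibroblast-like cells, also not tested.

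The barcodes left out by the filters, which enter no comparison of the report, held both genes. Mt2A had 1121 CPM in the 149 left-out Nuc1 barcodes and 523 in the 146 left-out WT barcodes, and Mt3 had 4267 and 2022. These barcodes had a median mitochondrial share of 35.0% in Nuc1 and 60.2% in WT. Their Gfap was 4869 and 1428 CPM.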

How the results depend on the processing

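No paired analysis was possible because there was 1 library per genotype and the labels give no replicate numbers. The sign of each ratio was the same under every alternative run, although for Mt2A in fibroblast-like cells the interval included 0 without clustering, without cluster 4 and without cells above 300 CPM of astrocyte markers (−0.22, −0.53 to 0.08): 17 for the ratio of Mt2A and 17 for that of Mt3 in astrocyte-like cells, 16 for Mt2A in fibroblast-like cells, and 13 in each library for Mt3 in astrocyte-like over fibroblast-like cells. The values that left the counting interval follow, as log2 ratios of Nuc1 over WT in astrocyte-like cells for Mt2A and then Mt3 unless said otherwise; the cause was not tested. A minimum of 200 genes gave 0.51 and 0.35. Clustering only cells with at most 10% mitochondrial UMIs gave 1.39 and 1.19 from 28 WT and 182 Nuc1 cells, and −0.18 for Mt2A in fibroblast-like cells. The astrocyte-like class formed there was larger than the 17 WT and 149 Nuc1 cells of the main clusters at the same limit. It was merged with motile-cilia-like cells, and whether cells of other groups joined it was not tested. Within the main clusters, an alternative added after the data were seen, cells with at most 10% gave 0.80 and 0.85 and cells with more 0.49 and 0.22. Cells assigned by detected markers without clustering gave 0.71 and 0.49, and −0.089 (−0.20 to 0.03) for Mt2A in fibroblast-like cells. Totals without mitochondrial and ribosomal protein UMIs gave 0.51 and 0.33. Centring on the median gene gave 0.68 and 0.50, and TMM scaling 0.73 and 0.55. Adding the motile-cilia-like cells, also an added alternative, gave 0.48 and 0.34. Mt3 alone left its interval when merged without integration (0.32), thinned to 5000 UMIs (0.35), averaged over cells (0.36) and without cells above 300 CPM of fibroblast markers (0.44). Mt2A in fibroblast-like cells was −0.48 with the UMIs expected from astrocyte RNA taken out and −0.10 without cluster 4, both added after the data were seen.

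The log2 ratio of Mt3 in astrocyte-like over fibroblast-like cells was 8.81 in WT and 8.56 in Nuc1 with at most 10% mitochondrial UMIs, 8.33 and 7.17 without clustering, and 10.3 and 8.73 without cells above 300 CPM of the other class's markers, which leaves 215 WT and 148 Nuc1 fibroblast-like cells. It was 9.63 in WT as a mean over cells, and 8.21 in Nuc1 without mitochondrial and ribosomal protein UMIs. The within-cell correlation of Mt2A and Mt3 in WT was 0.47 thinned to 10000 UMIs and 0.53 not thinned. The level that 3 counts give was 1.05 CPM in WT astrocyte-like cells, 7.64 in WT motile-cilia-like cells and 40.2 in Nuc1 macrophage-like cells, so small groups limit low levels. Mt2A and Mt3 were no markers and were left out of the clustering, except in the alternative that kept them, which left each ratio within its interval.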
